A study of Mus musculus with 18 samples.

Results

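Pairs of knockdowns (KDs) of *Stag1* with siRNAs against opposite ends of its mRNA were compared in mouse embryonic stem cells (mESCs), gene by gene across the transcriptome. The 5p KD used 1 custom duplex siRNA against exon 4, toward the 5′ end, and the 3p KD an equimolar mix of 3 commercial siRNAs against the 3′ end. The comparison was made of the 4 libraries that carry these labels (5p and 3p in replicate sets 2 and 3), out of 16 libraries in the table of serum-grown cells and 18 samples in the series, and it was paired by set. Cells of the male line E14, grown on gelatin in FCS with LIF, were transfected for 24 h, and RNA depleted of rRNA was sequenced. The same sets held 1 library each of scrambled siRNA (SCR), of the siRNA pool SP, which contains the siRNAs of the 3p mix, and of an enzymatically derived siRNA to the SATS 5′ UTR, so that 10 libraries entered the fit. None of the groups carries a genetic change, and all 10 libraries had received an siRNA. The labels do not say whether sets 2 and 3 were separate cultures, so the p-values measure the spread between these libraries, which may be partly technical. The question was where KDs of similar depth, aimed at different parts of 1 transcript, left different transcriptomes. The region targeted and the reagent (1 duplex or a mix of 3 siRNAs) differ together and cannot be told apart here.

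STAG1 is a subunit of cohesin, the ring complex that holds sister chromatids together and shapes chromatin loops with CTCF, and each ring carries either STAG1 or its paralog STAG2. mESCs in serum move between a naive state, held by LIF, STAT3 and a circuit of transcription factors, and states closer to the primed epiblast. An siRNA guide strand cuts a fully paired target, and through its seed (bases 2 to 8) it can also pair with 3′ UTRs of other mRNAs in the manner of a microRNA.

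The 4 libraries of 5p and 3p held 32137666 to 36034766 reads on genes, and 16164 to 16328 genes had at least 3 reads. All differences rest on 2 libraries a group. *Rn45s*, annotated as the rRNA precursor, took 16.4% to 23.9% of the reads. The values used here are normalized counts (reads divided by 1 size factor per library), and differences are on the scale of log2(value + 1), 5p minus 3p, with their standard error (SE). A gene passed at a Benjamini-Hochberg adjusted p under 0.05 in limma, fitted over 16490 genes with the set as a block.

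*Stag1* (GRCm38, chr9:100597709-100958544) fell to a similar level in both KDs. Its normalized counts were 441 and 401 in 5p (sets 2 and 3), 392 and 365 in 3p, and 1876 and 2113 in SCR, on 925, 867, 943 and 828 reads in the 4 KD libraries. Both 5p libraries lay above both 3p libraries. The difference of 0.15 (SE 0.10, 95% interval −0.05 to 0.36) did not pass the test (limma adjusted p = 0.489), and the interval covers a 5p level from 0.964 to 1.29 times that of 3p. The stretch of exon 4 (of 33) around the single match there to the seed of the 5p siRNA begins at base 195 of the coding sequence, on the plus strand of chr9:100738040-100738058 of GRCm38. It is shown because its seed match recurs in other transcripts (capitals mark the bases that pair with the seed of the guide strand).
Stag1, exon 4: aggagcaggtcGTGGAAGa

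Of the 16490 genes, 215 were higher in 5p (1.3% of those tested) and 322 were lower (1.95%). Higher genes had a median difference of 0.56, reaching 2.13, and 31 of them differed by at least 2-fold. Lower genes had a median of −0.55, reaching −1.88, and 20 differed by at least 2-fold. Whether they passed or not, 20 of the 11052 genes of mean value 50 or more differed by at least 2-fold, with extremes of −1.88 and 1.52. Of the 5438 genes with a mean under 50, 214 did, and the rise of 2.13 was among these. All genes that passed went the same way in both sets, which the test favors. Of these, 148 of the higher and 282 of the lower genes differed more in set 3 than in set 2. Across the 11052 genes whose mean value was 50 or more, the differences of set 2 and set 3 had a Pearson correlation of 0.384, given as a description over genes, which are not independent. Without the block, 0 genes passed and 674 had an unadjusted p under 0.05, against 2610 with it. Without the 5p library of set 3 the counts were 35 and 49, and without the 3p library of set 3 they were 56 and 80.

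**Figure D1:**
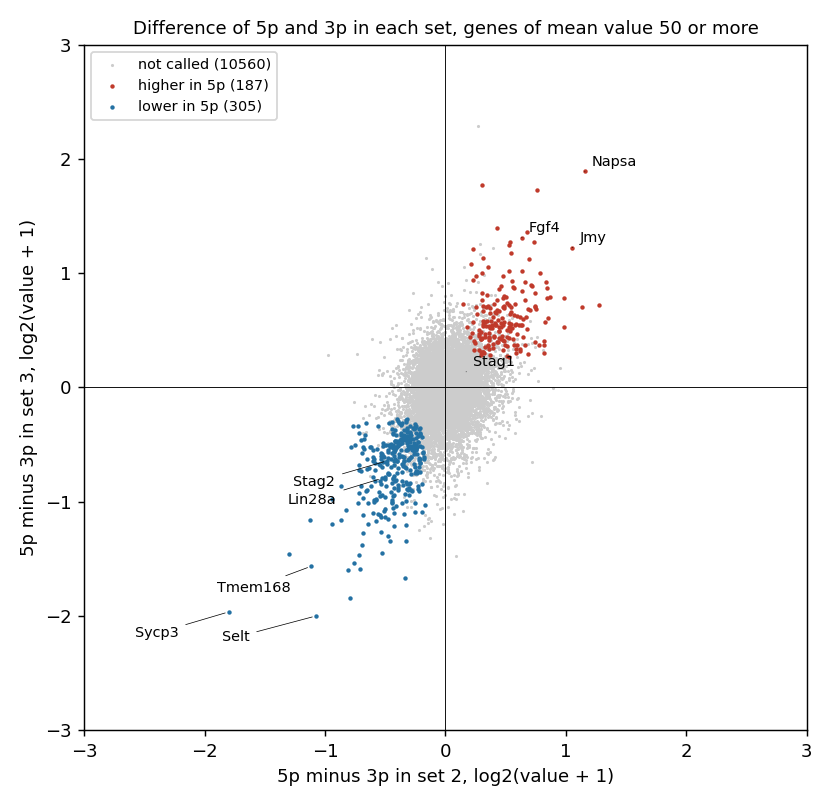
Difference between 5p and 3p on the log2(value + 1) scale in set 2 (x axis) and in set 3 (y axis), 1 point per gene of mean value 50 or more. The 187 higher (red) and 305 lower genes (blue) that passed the limma test lie in 2 opposite quadrants, while *Stag1* lies close to the origin.

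Each KD was also set beside SCR in the same fit, where 2.37% of genes passed for 5p and 0.285% for 3p. Both comparisons share the SCR libraries and each shares its KD libraries with the comparison of 5p and 3p, so the values are given side by side and not tested for likeness. The genes lower in 5p had a median difference from SCR of −0.47 in 5p and 0.06 in 3p. For the genes higher in 5p the medians were 0.26 in 5p and −0.31 in 3p.

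Among genes of mean value 50 or more, the 15 with the largest falls in 5p relative to 3p (limma adjusted p from 4.64e-05 to 0.0202) lay between −1.88 and −0.98, and all differed more in set 3 than in set 2. *Sycp3*, which encodes a protein of the synaptonemal complex of meiotic chromosomes, had 71.6 and 90.7 normalized counts in 5p (sets 2 and 3), 252 and 357 in 3p, and 213 and 264 in SCR. Its 5p libraries lay below every 3p and SCR library, and the difference from 3p was −1.88 (SE 0.17, limma adjusted p = 8.35e-05). *Selt*, now *Selenot*, which encodes a selenoprotein of the endoplasmic reticulum, had 1013 and 648 in 5p, 2139 and 2596 in 3p, and 2232 and 2322 in SCR. The difference was −1.54 (SE 0.16, limma adjusted p = 0.000267), with 3p at the level of SCR. *Tmem168*, encoding a transmembrane protein, had 179.9 and 151 in 5p, 391 and 448 in 3p, and 456 and 464 in SCR. The difference was −1.34 (SE 0.11, limma adjusted p = 4.64e-05), without overlap of the groups.

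*Bahd1*, whose product takes part in heterochromatin formation, had 168 and 129 normalized counts in 5p, 368 and 289 in 3p, and 384 and 248 in SCR. The difference was −1.14 (SE 0.10, limma adjusted p = 8.35e-05). *Ndufa5*, a subunit gene of respiratory complex I, had 88.8 and 40.7 in 5p, 220.3 and 114 in 3p, and 135 and 109 in SCR. Here 3p was above SCR in both sets, and the difference of 5p from 3p was −1.38 (SE 0.17, limma adjusted p = 0.000728). *Tsnax*, which encodes the partner of translin in an RNA-cutting complex, had 408 and 289 in 5p against 743 and 647 in 3p and 638 and 649.7 in SCR. *Tsr2*, encoding a chaperone of a ribosomal protein, had 230 and 207 in 5p, 441 and 474 in 3p, and 373 and 468 in SCR. Both were at or near the SCR level in 3p, with differences between 5p and 3p of −1.01 for *Tsnax* and −1.07 for *Tsr2*.

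The other 8 were *Nefm* (a neurofilament subunit), *Snx7* (a sorting nexin), *Wipi1* (autophagy), *Zcchc24*, *Scn3b* (a sodium channel subunit), *Reep3* (shaping of the endoplasmic reticulum), *Ahnak* (a giant scaffold protein) and *Csf1* (the growth factor of macrophages). *Ahnak* had 17642 and 4847 in 5p and 22207 and 15403 in 3p, so that its groups overlapped while the sets agreed in direction. *Csf1* had 991 and 148 in 5p and 1426 and 406 in 3p, and overlapped likewise. In 13 of the 15, which were picked for their difference, the groups did not overlap, and the 5p libraries lay below both 3p libraries in 11.3% of all genes of mean value 50 or more. Without the 5p library of set 3, 9 of the 15 passed in limma, and without the 3p library of set 3, 11 did. Relative to SCR the 15 genes ran from −1.54 to −0.47 in 5p and from −0.16 to 0.61 in 3p.

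The heptamer GTGGAAG, which pairs with bases 2 to 8 of the 5p guide strand, was searched on the transcribed strand of the longest annotated 3′ UTR (GENCODE, GRCm38) of 15106 of the 16490 genes. It was present in 46.7% of the genes lower in 5p (150 of 321 with a 3′ UTR), in 10.0% of the genes higher in 5p (21 of 209) and in 13.4% of all (2022). A match is a description and no evidence that the site is used, and whether these sites caused a difference was not tested. The stretches below are shown because they belong to lower genes described here, with the heptamer in capitals, each on the transcribed strand.
Sycp3, chr10:88473081-88473087, plus strand: ttatttaaGTGGAAGatttttgt
Selt site 1, chr3:58591881-58591887, plus strand: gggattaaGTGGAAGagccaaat
Selt site 2, chr3:58591914-58591920, plus strand: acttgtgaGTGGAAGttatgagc
Selt site 3, chr3:58592750-58592756, plus strand: ttgctattGTGGAAGgttttttg
Tmem168 site 1, chr6:13582629-13582635, minus strand: tatgggatGTGGAAGatattggg
Tmem168 site 2, chr6:13581304-13581310, minus strand: tattaaaaGTGGAAGttatacaa
Bahd1 site 1, chr2:118923789-118923795, plus strand: tatacactGTGGAAGatggcact
Bahd1 site 2, chr2:118923894-118923900, plus strand: attgggagGTGGAAGtgaaccct
Bahd1 site 3, chr2:118923950-118923956, plus strand: cctgatccGTGGAAGataaactg
Stag2, chrX:42275328-42275334, plus strand: ttttctaaGTGGAAGaggaaatt
Lin28a, chr4:134004967-134004973, minus strand: ccagattaGTGGAAGcctgccat

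Of the 15 largest falls 9 held the heptamer (*Sycp3*, *Selt*, *Tmem168*, *Snx7*, *Zcchc24*, *Bahd1*, *Tsr2*, *Reep3* and *Csf1*), and of the 15 largest rises 1 did (*Myo1f*). Among genes named further below, *Phf19*, *Nras* and *Sox21* were higher in 5p and held it too. Lower genes named below that held it included *Stag2*, *Fgf5*, *Lef1*, *Sox4*, *Ezh1*, *Chaf1a*, *Tgfbr1*, *Ltbp1*, *Btg2*, *Lin28a*, *Trim71*, *Syce1*, *Mrpl49* and *Ddx19b*. Sites were listed for only part of the genes named here, so others, higher or lower, may hold it too. Among genes whose mean value was 50 or more, 1.74% of the 9269 without the heptamer were lower in 5p, 8.45% of the 1302 with 1 copy and 13.9% of the 237 with 2 or more. The median difference went from 0.01 to −0.05 and −0.11 in that order. Against SCR the medians were 0.01, −0.06 and −0.13 in 5p and 0.00, 0.00 and −0.01 in 3p. Where an A followed the heptamer, as in the *Stag1* site, 15.3% of 502 genes were lower in 5p, and where none did, 6.36% of 1037. UTRs with more copies are longer, so the shares were taken within classes of length too: below 500 bases 14.1% of 64 genes with the heptamer were lower in 5p and 0.987% of 2431 without, and at 4000 bases or more 7.2% of 375 with and 1.95% of 563 without. The heptamer for the seed of the other strand of the duplex, CTGCTCC, was held by 19.3% of lower, 23% of higher and 17.9% of all genes. CTTCCAC, the reverse complement of the first, was held by 14.6% of lower, 20.6% of higher and 12.8% of all genes. The lower genes without GTGGAAG, 171 in number, had a median difference of −0.51, against −0.58 for the 150 with it. The sequences of the 3p siRNAs were not analysed here, so no such search was made for them.

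**Figure D2:**
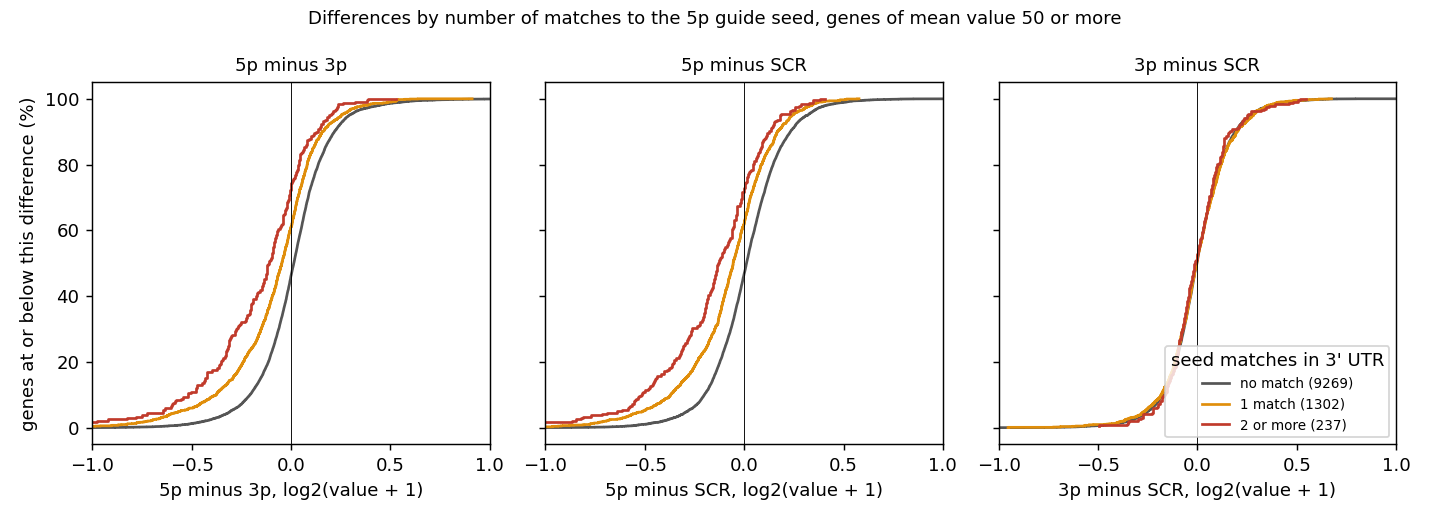
Cumulative share of genes (y axis, percent) at or below a log2 difference (x axis) for 5p minus 3p, 5p minus SCR and 3p minus SCR, by the number of matches to the 5p guide seed in the 3′ UTR, for genes of mean value 50 or more. The curves of genes with 1 match (1302) and 2 or more (237) lie left of the curve without a match (9269) in the panels that contain 5p and run together in 3p minus SCR.

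Among genes of mean value 50 or more, the 15 with the largest rises in 5p relative to 3p (limma adjusted p from 4.64e-05 to 0.0469) lay between 0.88 and 1.52. Relative to SCR they ran from 0.10 to 1.18 in 5p and from −0.93 to 0.07 in 3p. *Napsa*, encoding an aspartic protease, had 57.7 and 95.8 normalized counts in 5p (sets 2 and 3), 25.4 and 25.1 in 3p, and 29.4 and 35.3 in SCR. It was raised in 5p relative to both, with a difference of 1.52 from 3p (SE 0.21, limma adjusted p = 0.00147). *Jmy* (chr13:93430097-93499808), which encodes an actin nucleator and cofactor of p53, had 922 and 1053 in 5p, 444 and 451 in 3p, and 809 and 903 in SCR. Here it was 3p that stood apart from SCR, by −0.93 (limma adjusted p = 0.000387), while 5p differed from SCR by 0.20 (limma adjusted p = 0.268), and 5p was 2.20 times 3p on the fitted scale (limma adjusted p = 4.64e-05). SP, which holds the 3p siRNAs, had 582 and 548.

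*Hipk3*, a protein kinase gene, had 1635 and 1460 normalized counts in 5p, 825 and 849 in 3p, and 1083 and 885 in SCR. Its difference was 0.88 (SE 0.10, limma adjusted p = 0.00037), with 5p above SCR by 0.66. *Mob1a*, of the Hippo pathway, had 779 and 755 in 5p, 452 and 377 in 3p, and 580.1 and 558 in SCR. It thus lay on opposite sides of SCR, at 0.43 in 5p (limma adjusted p = 0.0199) and −0.46 in 3p (limma adjusted p = 0.0467). *AU015836* had 469.6 and 352 in 5p, 293 and 137 in 3p, and 331 and 206 in SCR, without overlap between 5p and 3p. The rest were *Serpinb6c* (a protease inhibitor), *Foxn4* (a forkhead factor), *Rassf4*, *Psd3*, *Fgf4*, *Hs6st2* (sulfation of heparan sulfate), *Myo1f* (a myosin), *Slc17a7* (a vesicular glutamate transporter), *Spink1* (a trypsin inhibitor) and *Cd34*. Only *Myo1f* among the 15 overlapped between the groups, with 119 and 66.6 in 5p and 88.5 and 24.7 in 3p. The 5p libraries lay above both 3p libraries in 11.9% of all genes of mean value 50 or more. Of the 15, 7 passed in limma without the 5p library of set 3 and 8 without the 3p library of set 3.

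**Figure D3:**
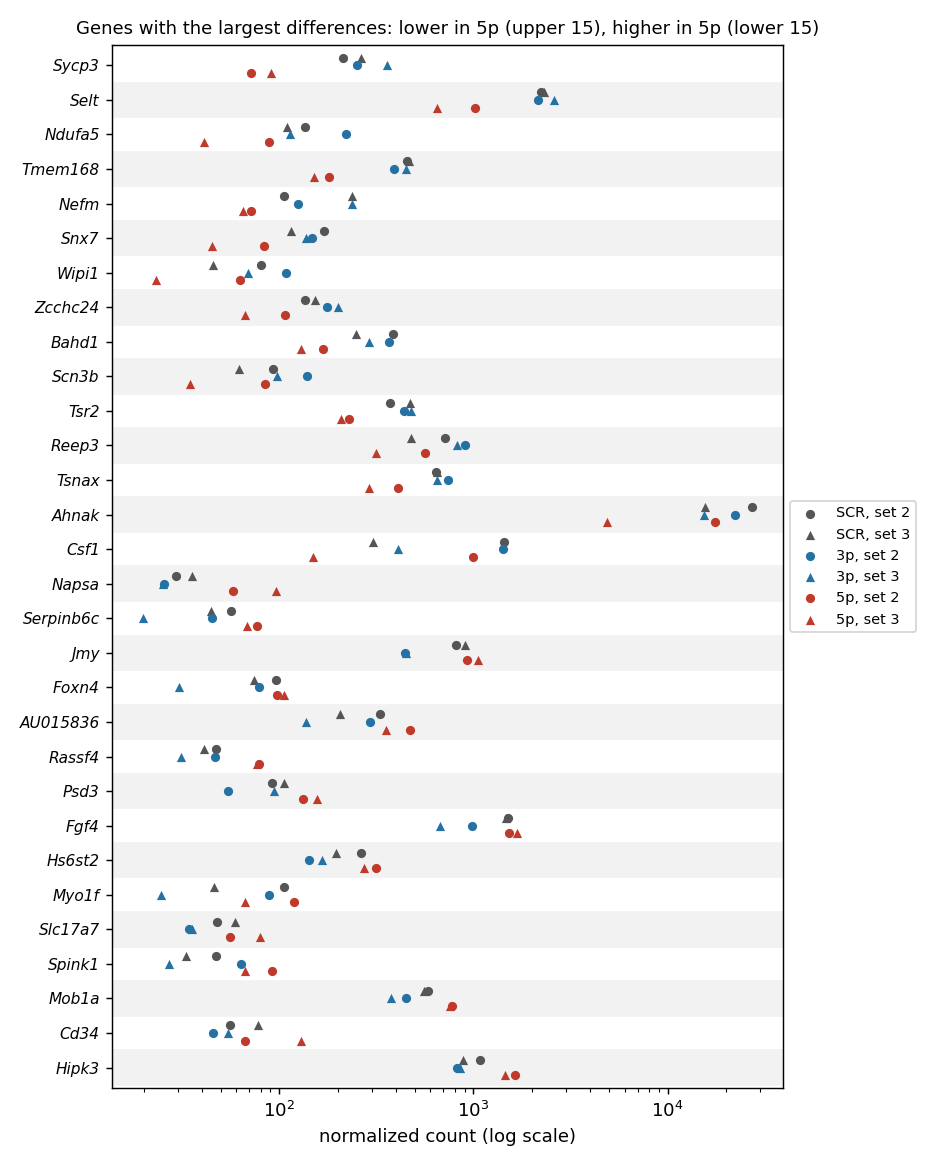
Normalized counts (x axis, log scale) of the 15 genes with the largest falls (upper rows) and the 15 with the largest rises in 5p relative to 3p (lower rows), 1 point per library (circles, set 2, and triangles, set 3). In the upper rows the 5p points (red) lie left of SCR (grey) and 3p (blue) of their set, and in rows such as *Jmy* and *Fgf4* it is 3p that lies left.

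Genes of naive pluripotency included 10 that were higher in 5p and 2 that were lower, of 62 tested, against 1.3% and 1.95% of all genes. Their median difference was 0.16, against 0.02 over all genes. The list's median was 0.02 in set 2 and 0.29 in set 3, and without the library of set 3 of either KD 2 genes were higher. Relative to SCR the list's median was −0.01 in 5p and −0.20 in 3p. The counts of the lists that follow are to be read beside the same shares of all genes, 1.3% higher and 1.95% lower. *Fgf4* (chr7:144861386-144865245), the growth factor that drives exit from the naive state, had 1523 and 1668 normalized counts in 5p, 981 and 672 in 3p, and 1505 and 1477 in SCR. Both 3p libraries lay below those of 5p and SCR, SP had 1128 and 910, and the difference was 0.97 (SE 0.12, limma adjusted p = 0.00088). *Nr0b1*, encoding the orphan receptor DAX1, had 1102 and 991 in 5p, 939 and 428 in 3p, and 1119 and 713 in SCR, with a difference of 0.72 (limma adjusted p = 0.0277). *Lefty2*, an inhibitor of Nodal, had 346 and 734 in 5p, 271 and 353 in 3p, and 293 and 606 in SCR. Its groups overlapped, since set 3 was higher throughout, and the difference was 0.70 (limma adjusted p = 0.0141).

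*Lifr*, the gene of the LIF receptor, and *Stat3*, the factor it activates, were both higher in 5p. *Lifr* had 1879 and 1595 normalized counts in 5p, 1290 and 976 in 3p, and 1886 and 1557 in SCR, a difference of 0.63 (SE 0.08, limma adjusted p = 0.00088). *Stat3* had 1714 and 1531 in 5p, 1384 and 963 in 3p, and 1582 and 1259 in SCR, a difference of 0.49 (limma adjusted p = 0.00747). In both, 5p and 3p did not overlap, and 5p lay above both 3p libraries in 11.9% of all genes of mean value 50 or more. The other 5 that rose were *Pramel7* (at 21.0 and 7.4 in 5p and 6.23 and 1.76 in 3p), *Nr5a2*, *Jam2*, *Spp1* and *Upp1*, with differences of 1.60, 0.45, 0.45, 0.45 and 0.44. *Pecam1* (−0.47) and *Tdrd12* (−0.57) fell. The core factors that follow were chosen after their values were seen. *Nanog* had 3388 and 2610 in 5p and 3356 and 2116 in 3p, a difference of 0.16 (SE 0.10, limma adjusted p = 0.467). *Esrrb* differed by 0.18 (limma adjusted p = 0.396), *Klf2* by 0.42 (limma adjusted p = 0.0977), *Sox2* by 0.34 (limma adjusted p = 0.0826) and *Pou5f1* by −0.03 (limma adjusted p = 0.929).

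Of 46 formative and primed genes 4 were lower in 5p and 1 was higher, and without the library of set 3 of either KD none passed in limma. *Fgf5*, a marker of the primed epiblast, had 44.9 and 162 normalized counts in 5p, 68.6 and 255 in 3p, and 62.9 and 298 in SCR, a difference of −0.62 (limma adjusted p = 0.02). *Lef1* (−0.47) and *Sox4* (−0.43), both transcription factor genes, and *Cldn6* (−0.37), a tight junction gene, were the others. *Fgf5*, *Lef1* and *Sox4* each held 1 GTGGAAG in the 3′ UTR. The list's median was −0.08, and of all genes tested 1.95% were lower and 1.3% higher in 5p.

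Among 24 genes of cohesin and CTCF, *Stag2* (chrX:42149297-42277186) was lower in 5p and none was higher. It had 1434 and 2092 normalized counts in 5p (sets 2 and 3), 2004 and 3265 in 3p, and 1811 and 2895 in SCR. In each set 5p was the lowest of the 3, although the groups overlapped between sets, and the difference was −0.56 (SE 0.08, limma adjusted p = 0.00247). Relative to SCR, *Stag2* differed by −0.40 in 5p (limma adjusted p = 0.0229) and by 0.16 in 3p (limma adjusted p = 0.536). Its call was lost without the 5p library of set 3. Its site for the 5p seed lies 42 bases into the 3′ UTR. *Rad21*, the cleavable ring subunit, differed by 0.23 (limma adjusted p = 0.108), and *Ctcf* by 0.13 (limma adjusted p = 0.459).

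Polycomb genes moved both ways, 4 of 36 higher and 3 lower in 5p, against 1.3% and 1.95% of all genes. Their median was −0.02. Without the library of set 3 of either KD the counts were 0 higher and 1 lower. *Rnf2*, the ubiquitin ligase of complex PRC1, had 1507 and 1795 normalized counts in 5p, 1115 and 1189 in 3p, and 1405 and 1552 in SCR, a difference of 0.51 (SE 0.09, limma adjusted p = 0.00523). *Suz12*, a core subunit of the methyltransferase complex PRC2, had 3880 and 4349 in 5p, 2939 and 3199 in 3p, and 3265 and 3647 in SCR, a difference of 0.42 (limma adjusted p = 0.00458). The PRC2 accessory genes *Phf19* (0.51) and *Mtf2* (0.37) were also higher. In each of the 4, picked for passing the test, the 5p and 3p libraries did not overlap. Across all genes of mean value 50 or more, 5p lay above both 3p libraries in 11.9%. *Ezh1*, a methyltransferase gene of PRC2, had 223 and 212 in 5p, 311 and 358 in 3p, and 357 and 356 in SCR, a difference of −0.61 (SE 0.11, limma adjusted p = 0.00725). *Kdm2b*, which brings PRC1 to CpG islands, had 1386 and 1427 in 5p, 1937 and 2277 in 3p, and 1983 and 2394 in SCR, a difference of −0.58 (limma adjusted p = 0.00117). For the falling genes 3p stood near SCR, at −0.10 for *Ezh1* and −0.05 for *Kdm2b*. *Cbx6* (−0.31), a chromodomain gene, was the other one lower.

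**Figure D4:**
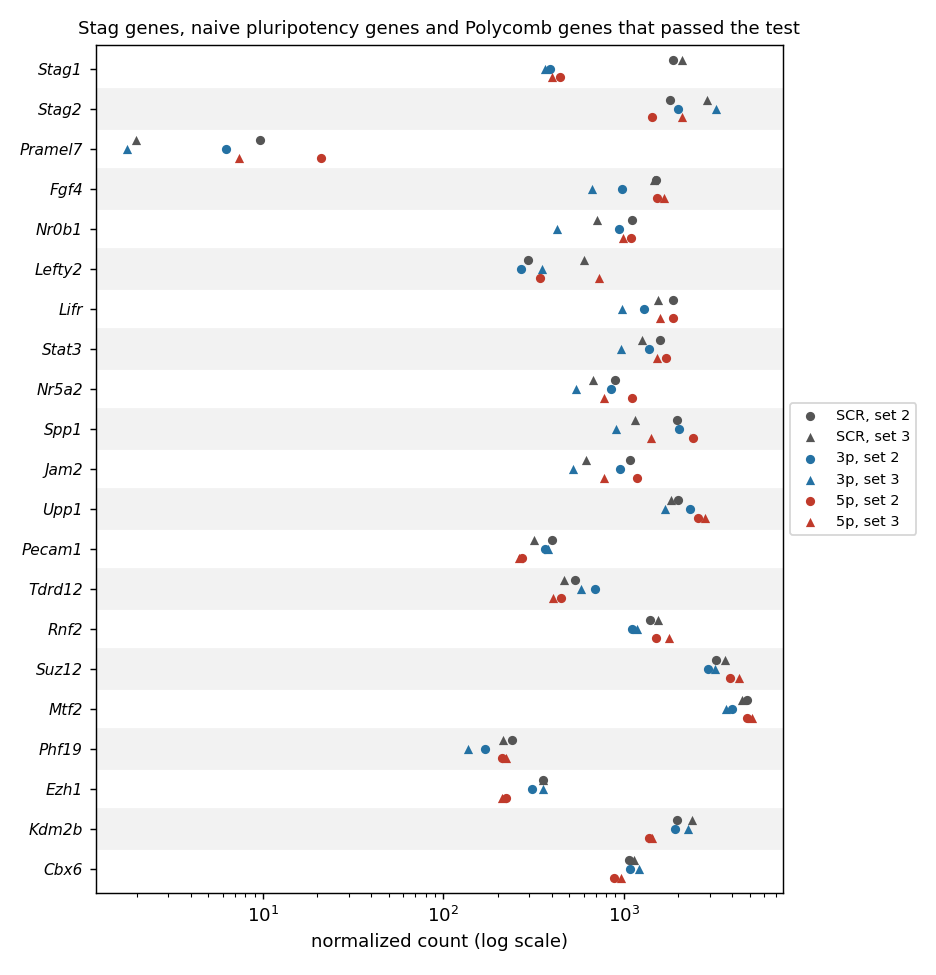
Normalized counts (x axis, log scale) of *Stag1*, *Stag2*, the 12 naive genes and the 7 Polycomb genes that passed the limma test, 1 point per library (circles, set 2, and triangles, set 3). For *Stag1* both KDs lie far left of SCR, for *Fgf4*, *Lifr* and *Rnf2* the 3p points (blue) lie left of 5p (red), and for *Stag2*, *Ezh1* and *Kdm2b* the 5p points do.

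Among 41 heterochromatin genes *Cbx5*, encoding HP1 alpha, and *Chaf1a*, a histone chaperone subunit gene, were lower and none was higher, and neither passed without the library of set 3 of either KD. *Cbx5* had 9038 and 9102 normalized counts in 5p, 11541 and 14688 in 3p, and 12229 and 14199 in SCR, a difference of −0.52 (limma adjusted p = 0.00713). *Chaf1a* differed by −0.37 (limma adjusted p = 0.0268). Of 24 genes of DNA methylation 1 was lower, *Gadd45b* (−0.61, limma adjusted p = 0.0116), which has roles in demethylation and stress. Of 69 nucleolar and RNA polymerase I genes 0 passed in limma, and 69 had a mean of at least 50. *Ncl* (nucleolin) had 30512 and 25939.7 in 5p and 33026 and 27846 in 3p, a difference of −0.11 (SE 0.11, limma adjusted p = 0.703). *Npm1* differed by 0.10 (limma adjusted p = 0.785) and *Rn45s* by 0.24 (SE 0.32, limma adjusted p = 0.797). As the RNA had been depleted of rRNA, the *Rn45s* value cannot show whether the level of the rRNA precursor differed.

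Of 46 Wnt genes 7 were lower in 5p and 1 was higher, against 1.95% and 1.3% of all genes, and the median was −0.10. Without the library of set 3 of either KD the counts were 1 lower and 0 higher. *Csnk1a1*, the kinase that primes beta-catenin for destruction, had 2365 and 1733 normalized counts in 5p, 3802 and 3766 in 3p, and 4085 and 3832 in SCR. The difference was −0.90 (SE 0.10, limma adjusted p = 0.000349), with 3p at the level of SCR. Relative to SCR the list's median was 0.003 in 5p and 0.06 in 3p. *Wnt5b* and *Wnt6*, both ligands, differed by −0.87 and −0.73, and *Rnf43*, a ubiquitin ligase that removes Frizzled receptors, by −0.79. Against SCR, *Wnt5b* stood at −0.49 in 5p and 0.38 in 3p, *Rnf43* at −0.48 and 0.31, and *Wnt6* at −0.67 and 0.06. *Rnf43* had 45.3 and 21.3 in 5p and 68.2 and 43.6 in 3p, and *Wnt6* had 122 and 58.3 in 5p and 166 and 118 in 3p. *Sp5* (−0.61) and *Lef1* (−0.47), a target and an effector, and *Fzd2* (−0.39), a receptor, were also lower, while *Notum* (0.65), a secreted inhibitor, was higher. Of the FGF and ERK genes, 37 in number, *Fgf4* and *Spry4* were higher. *Spry4*, a feedback inhibitor, had 1739 and 2319 in 5p, 1369 and 1322 in 3p, and 1704 and 2397 in SCR (0.58, limma adjusted p = 0.0108). *Phlda1* (−0.64), *Fgf5*, *Il17rd* (−0.37) and *Fgfr1* (−0.35) fell. Without the library of set 3 of either KD 1 of these genes was higher and none was lower.

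Of 27 genes of LIF and STAT3 signaling 2 were higher, the receptor gene *Lifr* and *Stat3*, and 3 were lower. *Junb* (−0.48), *Socs2* (−0.39), a feedback inhibitor, and *Ptpn11* (−0.35), a phosphatase of the ERK branch, were the lower ones. Of 28 genes of Nodal and Activin signaling *Lefty2* was higher, and *Tgfbr1* (−0.64), a receptor, and *Ltbp1* (−0.64), a binding protein of latent TGF beta, were lower. *Tgfbr1* had 652 and 673 normalized counts in 5p, 858 and 1250.4 in 3p, and 815 and 928 in SCR. Without the 5p library of set 3, 1 gene of the LIF list was higher with none lower, and no gene of the Nodal list passed. Without the 3p library of set 3 the counts were 1 and 1 for LIF and 0 and 1 for Nodal. Of 30 BMP targets 0 passed in limma.

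Immediate early genes were lower in 5p in 6 cases of 31, with none higher, against 1.95% and 1.3% of all genes. Their median was −0.22. *Fosb*, an AP-1 subunit gene, had 28.2 and 10.2 normalized counts in 5p, 55.3 and 22.02 in 3p, and 44.9 and 12.7 in SCR, a difference of −0.996 (SE 0.21, limma adjusted p = 0.02). *Fosl1*, also AP-1, had 67.8 and 28.2 in 5p and 94.8 and 70.9 in 3p, a difference of −0.89 (limma adjusted p = 0.0263). *Btg2*, an antiproliferative gene that p53 also drives, had 1125 and 816 in 5p, 1640 and 1578 in 3p, and 1228 and 826 in SCR. Here 3p was the one apart from SCR (0.67, limma adjusted p = 0.0284), as against −0.07 in 5p, and 5p minus 3p was −0.75 (limma adjusted p = 0.00247). *Atf3* (−0.69), *Ier5* (−0.61) and *Junb* completed the 6. Without the 5p library of set 3 the number lower was 0, and without the 3p library of set 3 it was 1. Of 51 genes of the integrated stress response *Atf3*, *Atf5* (−0.49) and *Slc1a4* (−0.41) were lower and none was higher, and of 41 p53 targets *Btg2* and *Pmaip1* (−0.44) were lower. Of the stress response none passed without the library of set 3 of either KD, and of the p53 targets none without that of 5p and 1 without that of 3p.

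Of 24 genes of LIN28 and let-7 3 were lower and 1 was higher, and without the library of set 3 of either KD 1 was lower and none was higher. *Lin28a* (chr4:134003330-134019196), which blocks maturation of let-7, had 5997 and 5629 normalized counts in 5p (sets 2 and 3), 8643 and 9770 in 3p, and 8704 and 9992 in SCR. The difference was −0.66 (SE 0.09, limma adjusted p = 0.000958), without overlap and with 3p at the level of SCR. *Trim71*, a let-7 target, was lower (−0.36), and *Nras* was higher (0.36). Of all genes tested 1.95% were lower and 1.3% higher in 5p. Of 28 genes of RNA interference 2 were higher, *Tnrc6a* and *Fmr1*, and none was lower. *Tnrc6a*, the Argonaute partner GW182, had 2825 and 2502 in 5p, 1784 and 1937 in 3p, and 2557 and 2379 in SCR, a difference of 0.52 (SE 0.08, limma adjusted p = 0.00326). *Fmr1* differed by 0.48 (limma adjusted p = 0.00494). Without the 5p library of set 3, 1 of the list was higher.

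Germline genes were lower in 4 of 38 and higher in 0 (limma), *Sycp3* first, and without the library of set 3 of either KD 1 was lower. *Taf7l*, a germ cell cofactor of transcription, had 25.8 and 25.4 normalized counts in 5p, 42.0 and 91.6 in 3p, and 28.5 and 39.7 in SCR, a difference of −1.25 (limma adjusted p = 0.00824). *Ddx4*, the germ cell helicase VASA, had 292 and 301 in 5p, 414 and 660 in 3p, and 313 and 288 in SCR. In *Ddx4* 5p was near SCR (−0.02) and 3p above it (0.80, limma adjusted p = 0.0407), and 5p minus 3p was −0.82 (limma adjusted p = 0.00713). *Syce1* (−0.61), of the synaptonemal complex, was the other. Of all genes tested 1.95% were lower in 5p. The median of the germline list relative to SCR was 0.10 in 5p and 0.31 in 3p.

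The 37 genes of the two-cell state that were tested had the highest median of all lists, 0.42 (0.25 in set 2 and 0.50 in set 3), and 28 of them had a positive difference, against 53.2% of all genes. Relative to SCR the list's median was 0.37 in 5p and −0.005 in 3p. In both sets 23 of the 37 were higher in 5p and 4 were lower, against 4967 and 4104 of all 16490 genes. A further 12 symbols of the list were not found in the data. None passed in limma, and 11 of the 37 had a mean of at least 50. Genes with a mean under 50 had a median difference of 0.07 as a whole, and with a filter of 50 on the mean the list's median was −0.03. *Zscan4d*, chosen after its values were seen, had 114 and 30.1 normalized counts in 5p, 108 and 21.1 in 3p, and 113 and 13.9 in SCR, a difference of 0.28 (SE 0.23, limma adjusted p = 0.64). *Gm2022* had 58.2 and 12.5 in 5p, 33.2 and 5.73 in 3p, and 47.4 and 9.52 in SCR, a difference of 0.90 (limma adjusted p = 0.0873). *Zscan4d* and *Gm2022* belong to families of near-identical copies whose reads the counting may split. The genes of the list with the largest mean values, *Trp53inp1* and *Eif1a*, differed by −0.09 and 0.15.

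Ribosomal protein, respiratory chain, proteasome and replication genes had medians of opposite sign in the 2 sets. The 87 cytosolic ribosomal protein genes had a median difference of −0.12 in set 2 and 0.12 in set 3, with 0 past the test in limma. The 83 nuclear genes of the respiratory chain had −0.13 and 0.19, and *Ndufa5* was the one that passed. The 77 mitochondrial ribosomal protein genes had −0.07 and 0.21, with *Mrpl49* lower. *Mrpl49* had 472 and 468 normalized counts in 5p, 719 and 686 in 3p, and 771 and 773 in SCR, a difference of −0.58 (limma adjusted p = 0.00144). The 48 proteasome genes (−0.09 and 0.11) included *Psmg3* (−0.55), an assembly chaperone gene that was lower, and the 58 replication genes (−0.06 and 0.14) had *Chaf1a* lower. Of 52 mitosis genes 0 passed in limma (median 0.04), as of 41 SR protein and hnRNP genes (−0.02), 58 histone genes (0.07) and 24 snoRNA hosts (−0.02).

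*Mxi1*, an antagonist of MYC, was the 1 of 47 genes of glycolysis and hypoxia, with 164 and 129 in 5p, 269 and 246 in 3p, and 263 and 241 in SCR (−0.82, limma adjusted p = 0.000932). Of 47 genes of the interferon response *Ddx58*, the RNA sensor RIG-I, was lower, with 459 and 288 in 5p, 638 and 421 in 3p, and 620 and 481 in SCR (−0.51, limma adjusted p = 0.00737), and none was higher. Among 54 DEAD and DEAH box helicases *Ddx4*, *Ddx58* and *Ddx19b* (−0.36) were lower and *Ddx3y* (0.62) was higher. Of 32 imprinted genes *Mest* (0.28) was higher. Over all genes tested 1.95% were lower and 1.3% higher, so 1 lower gene of 47 is near the share of all genes. Of the calls in these lists, that of *Mxi1* was kept without the library of set 3 of either KD, and those of *Ddx58*, the helicases and *Mest* were lost.

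**Figure D5:**
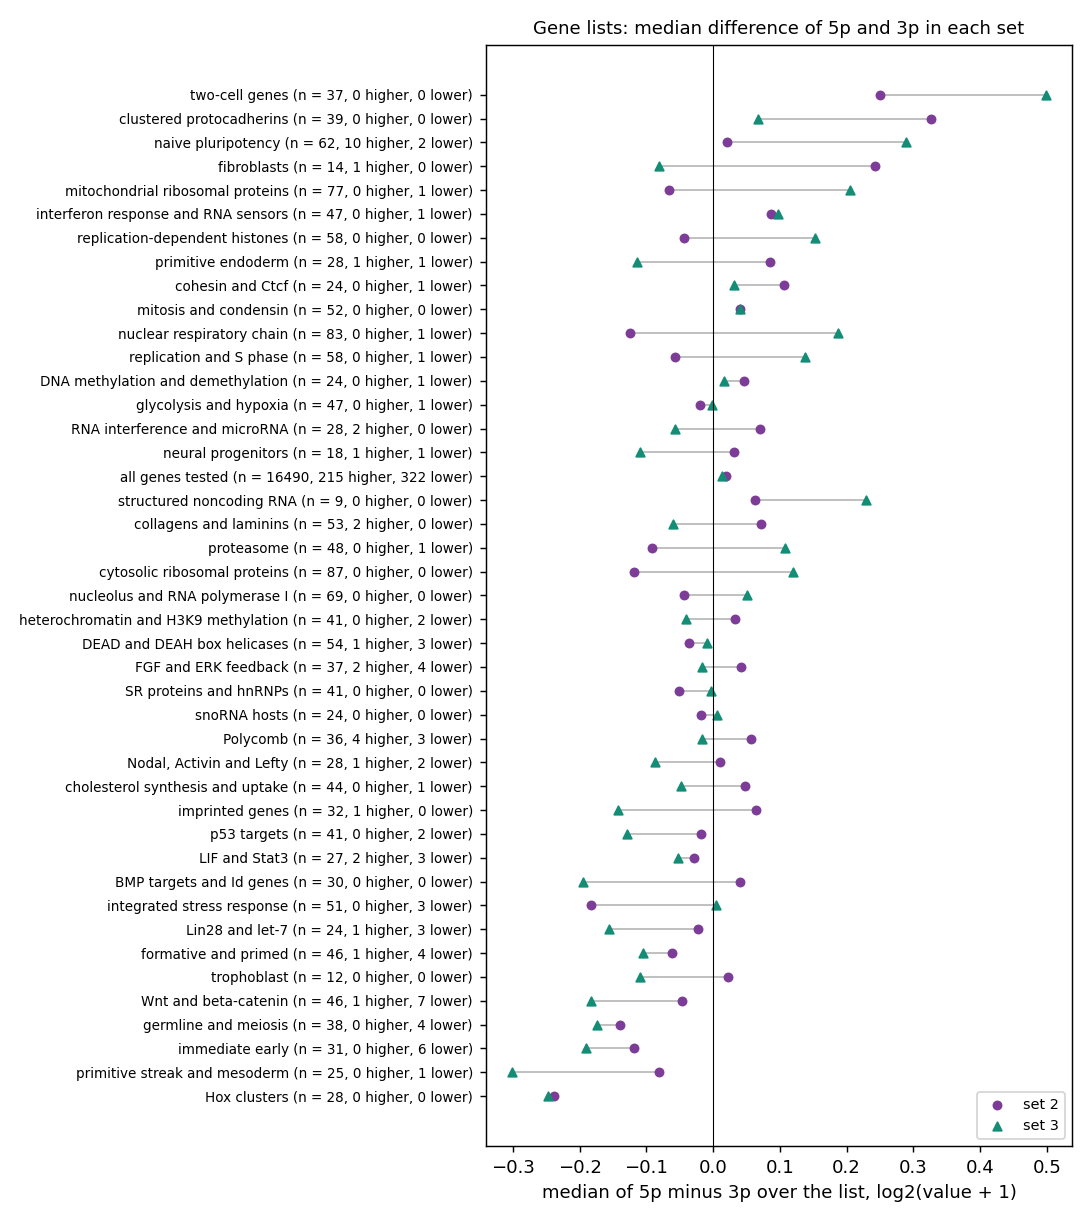
Median difference of 5p and 3p (x axis, log2 scale) over each gene list in set 2 (circles) and set 3 (triangles), with the number of genes tested and of those that passed the limma test in each direction. Naive genes lie at 0.02 and 0.29, immediate early genes below 0 in both sets, and ribosomal protein and respiratory chain genes on opposite sides of 0.

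Markers of the cell type and of others it could hold were compared last. The 7 mESC markers were all present, with a summed level of 36750 and 42686 normalized counts in 5p and 37774 and 33460 in 3p, and 0 of 7 passed in limma. The 6 fibroblast markers summed to 2743 and 381 in 5p and 2659 and 477 in 3p, a gap between sets in both KDs, and *Col3a1* was higher in 5p, at 306 and 61.5 against 173 and 46.2 (0.61, limma adjusted p = 0.0237). The 5 neural markers summed to 2946 and 1838 in 5p and 3890.3 and 3298 in 3p, mostly *Nes*, an intermediate filament gene, which was lower (−0.68, limma adjusted p = 0.00723). Primitive endoderm markers ranged from 245 to 351 in sum, primitive streak markers from 273 to 561 and trophoblast markers from 152 to 615 over the 4 libraries, with none past the test. No marker in the table was at 0 in all 4 libraries. Among wider lists of these types, *Lama1*, a laminin of basement membranes, was higher in 5p at 2059 and 1174, against 1259 and 631 in 3p and 1365 and 659 in SCR (0.80, limma adjusted p = 0.0027). *Foxq1* (−0.73), of 28 endoderm genes, and *Sox21* (0.60), of 18 neural genes, passed too, as did *Wnt5b* of 25 streak and mesoderm genes, with 0 of 12 trophoblast genes in limma. Without the 5p library of set 3 none of these lists, fibroblasts included, held a gene that passed. In bulk RNA, fewer cells of a type and less RNA per cell cannot be told apart. Hox genes (28 tested, median −0.25) and clustered protocadherins (39 tested, 0.24) had 0 past the test in limma, and 1 and 3 of them had a mean of at least 50.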

How the data were processed

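Per the labels and methods, the authors used HISAT2 (mm10) for alignment and featureCounts for gene counts, then divided the counts by DESeq2 (1.14.1) size factors, so that the deposited values are a normalized signal (18659 genes, 16 libraries). Within a library 100% of values were whole multiples (tolerance 0.01) of that of 1 read, which gave the reads. Genes with a summed value under 10 in the 10 libraries (2169) were left out. log2(value + 1) was fitted with limma 3.58.1 (eBayes with trend) in R 4.3.3 over SCR, SP, 3p, 5p and SATS of sets 2 and 3, with the set as a block, since the comparison is paired by set. Deviations of samples of the same set from their group means correlated at 0.809 to 0.934 (10 pairs of groups, 11019 genes), and at 0.809 for 5p and 3p. With 2 libraries a group, the deviations mirror each other. The fit was also run on simulated data in which the KD acted alike in both sets. That run cannot show how far the calls hold where the sets differ, as they do here. Alternatives were other scalings, pseudocounts, filters, library sets, left-out libraries, edgeR 4.0.16 and DESeq2 1.42.0. Genes named were *Stag1*, the 15 largest rises and 15 largest falls past an adjusted p of 0.05 with the same direction in both sets and a mean of at least 50, and per list up to 4 that passed with the largest difference, or else the 2 with the largest mean. Other list members were named after their values were seen. Members and lists were chosen with earlier results of these data known. 3′ UTRs and sites came from GENCODE M21 and gene coordinates from RefSeq (both GRCm38). Older symbols were matched through RefSeq synonyms for 440 of 15106 genes. The 4 libraries of set 1, the untreated control and the luciferase control entered no main fit, and 2 samples outside this table were not used. Some genes that passed the test are not reported here.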

Additional observations from a re-analysis of the deposited data

How the results depend on the processing

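The counts of genes that passed (215 higher and 322 lower in 5p) rest on the pairing by set and on the variance trend. With no replicate block, limma called 0 higher and 0 lower (674 genes at an unadjusted p under 0.05), and edgeR without the replicate block, an alternative chosen after seeing the data, likewise 0 and 0 (632 genes). Without the trend in eBayes the counts were 0 and 0 (2342 genes at an unadjusted p under 0.05). The cause of the last was not tested. Leaving out 1 library gave 35 to 181 higher and 49 to 469 lower genes, with the lowest counts without the 5p library of set 3 (35 and 49) and without the 3p library of set 3 (56 and 80). Of the 35 and 49, 34 and 49 were among the genes of the full fit. With the block, the other settings gave 181 to 233 higher and 287 to 397 lower, edgeR on the recovered reads 191 and 338, and DESeq2 194 and 397. The difference in *Stag1* was 0.14 to 0.16 over 13 other settings and 0.07 to 0.23 with 1 library left out, and never passed (limma, edgeR and DESeq2 adjusted p from 0.434 to 1). Of the genes named by the rule, the 86 that passed the test kept their direction in all alternatives run, while 15 of the 23 that did not pass changed sign in at least 1. The share of lower genes with the seed heptamer was 45.3% to 46.9% over the other settings with the block and 40.5% to 67.3% with 1 library left out. Of 42 list medians, 2 to 4 changed sign under another scaling or count model with the block, all within 0.05 of 0, 6 with the filter on the mean, the list of two-cell genes among them, and 5 to 13 with 1 library left out.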
